A study of Mus musculus with 21 samples.

Results

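The genes described here are 3 RSK kinases (Rps6ka1, Rps6ka2 and Rps6ka3) and 7 feedback genes of the ERK pathway (Dusp4, Dusp6, Spry1, Spry2, Spry4, Spred1 and Etv5). They are 10 of the 54532 genes in the deposited expression table, taken by symbol. The set was chosen by the FPKM of Rps6ka1, which was higher in every IDH1 mutant line, so its genotype difference is a description and carries no test. The same holds for the genotype differences of the other 9 genes, which were chosen with that contrast known.

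The cells were 7 mouse glioma stem-like lines from brain tumours of genetically engineered mice, with PIC144-1, PIC144-3, PIC496-3 and PIC496-4 labelled as mutant for IDH1 and PC134-0, PC308-1 and PC326-1 labelled as IDH1 WT. Each line gave 3 libraries, which the labels call biological replicates of that line. No line was treated, and all were grown as floating cultures in stem cell medium with EGF and bFGF, 20 ng/mL of each, at 5% oxygen. The sources used here do not give the mutated residue, the other alleles, the promoter driving any of them, or the strain and age of the mice. Both growth factors act on receptors upstream of ERK. Since genotype belongs to the line, genotype comparisons have n = 4 and n = 3 lines, and the labels leave unsaid whether lines whose names share a number came from 1 animal.

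ERK is the last kinase of the RAS-RAF-MEK cascade that growth factor receptors switch on. RSK kinases are bound and phosphorylated by ERK and pass the signal to ribosomal protein S6, transcription factors and cell survival proteins. ERK signalling also raises the transcription of its own inhibitors: Sprouty proteins (Spry genes) and Spred1 act on the cascade at the level of RAS and RAF, while the phosphatases encoded by Dusp4 and Dusp6 remove the activating phosphates from ERK. Etv5, an ETS transcription factor, is a transcriptional target of the same signalling, and transcripts of these feedback genes are widely read as a measure of ERK output.

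Several of the feedback genes, among them Etv5 and Dusp6, are known targets of Capicua, a repressor that ERK signalling removes from DNA and that binds octamers built on the core TGAATG. The 250 bases before 3 transcript starts are shown for that reason, with Rps6ka1 as the gene that led to the choice of the set. They are RefSeq sequences on GRCm38.p6, written from 5′ to 3′ on the strand of the gene. Capitals mark the core TGAATG or its reverse complement CATTCA.
Etv5, chr16:22438369-22438618, minus strand: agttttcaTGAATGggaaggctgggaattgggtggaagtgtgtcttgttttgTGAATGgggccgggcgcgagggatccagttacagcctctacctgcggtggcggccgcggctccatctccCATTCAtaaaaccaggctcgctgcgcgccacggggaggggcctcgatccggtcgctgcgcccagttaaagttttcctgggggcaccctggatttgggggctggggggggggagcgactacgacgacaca
Dusp6, chr10:99262981-99263230, plus strand: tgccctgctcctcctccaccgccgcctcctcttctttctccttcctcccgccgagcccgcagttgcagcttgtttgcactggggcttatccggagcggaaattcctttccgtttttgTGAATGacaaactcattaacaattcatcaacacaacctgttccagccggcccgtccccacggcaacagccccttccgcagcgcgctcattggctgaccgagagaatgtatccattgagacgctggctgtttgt
Rps6ka1, chr4:133887798-133888047, minus strand: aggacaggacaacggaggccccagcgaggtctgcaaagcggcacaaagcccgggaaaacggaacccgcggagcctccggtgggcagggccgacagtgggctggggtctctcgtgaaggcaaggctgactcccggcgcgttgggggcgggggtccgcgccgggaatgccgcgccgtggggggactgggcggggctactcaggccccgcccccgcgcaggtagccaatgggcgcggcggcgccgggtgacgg

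The Etv5 window, which lies before a start inside the annotated gene, held the core 3 times, 242, 198 and 129 bases before the start. A second Etv5 window, before the 5′ end of the gene (chr16:22439571-22439820), did not hold it. The Dusp6 window held it once, 133 bases before the start. Of 3 Rps6ka1 windows, the one shown, before the 5′ end of the gene, and 1 internal window did not hold it, and the other internal window held it once. The windows of the feedback genes Spry1, Spry2 and Spred1, and that of Rps6ka2, did not hold the core. Among 32851 RefSeq windows of the same 250 bases, 10.9% held the core at least once on either strand and 0.131% at least 3 times. The tables gave 10 windows for 7 of the 10 genes, and the Etv5 window is shown because it held the core, so the sequences are no comparison between genes. The core was searched after longer motifs had given 0 matches in the 10 windows of 300 bases. Those longer motifs, on both strands, were the Capicua octamers TGAATGAA and TGAATGGA, which both contain the core (1.30% and 1.21% of all windows), the ETS motif CCGGAAGT (3.89%), the CRE motif TGACGTCA (1.79%) and the AP-1 motif TGANTCA (7.81%). A match describes letters only, and a missing match says nothing of the factor.

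Library depth was 15011668 to 21966351 fragments, recovered from the deposited FPKM (fragment counts divided by gene length and by library size), a unit on which levels of different genes can be compared. The library size used in it was not the fragment total, but 0.957 (a PIC144-3 library) to 1.05 (a PC134-0 library) times that total. Glioma stem and progenitor markers were abundant as a sum, with summed FPKM of 698 to 1549 over the mutant lines and 1065 to 1481 over the WT lines. Olig1, the most abundant of the 8, stood at 310.2 to 720 in single lines. Not every marker was abundant in every line: Pdgfra, also among the 8, was at 0.436 in PIC496-4. Of the 8 microglia and macrophage markers none reached 0.5 FPKM in any line, the summed level was at most 0.0567 in either genotype, and Tyrobp, C1qa and C1qb were at 0. Summed markers of endothelium ranged from 0.152 to 2.40 (Flt1 leading), of fibroblasts and pericytes from 0.698 to 4.80 (Col3a1), of neurons from 0.280 to 8.22 (Syt1) and of mature oligodendrocytes from 0.172 to 1.22 (Mbp).

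**Figure D1:**
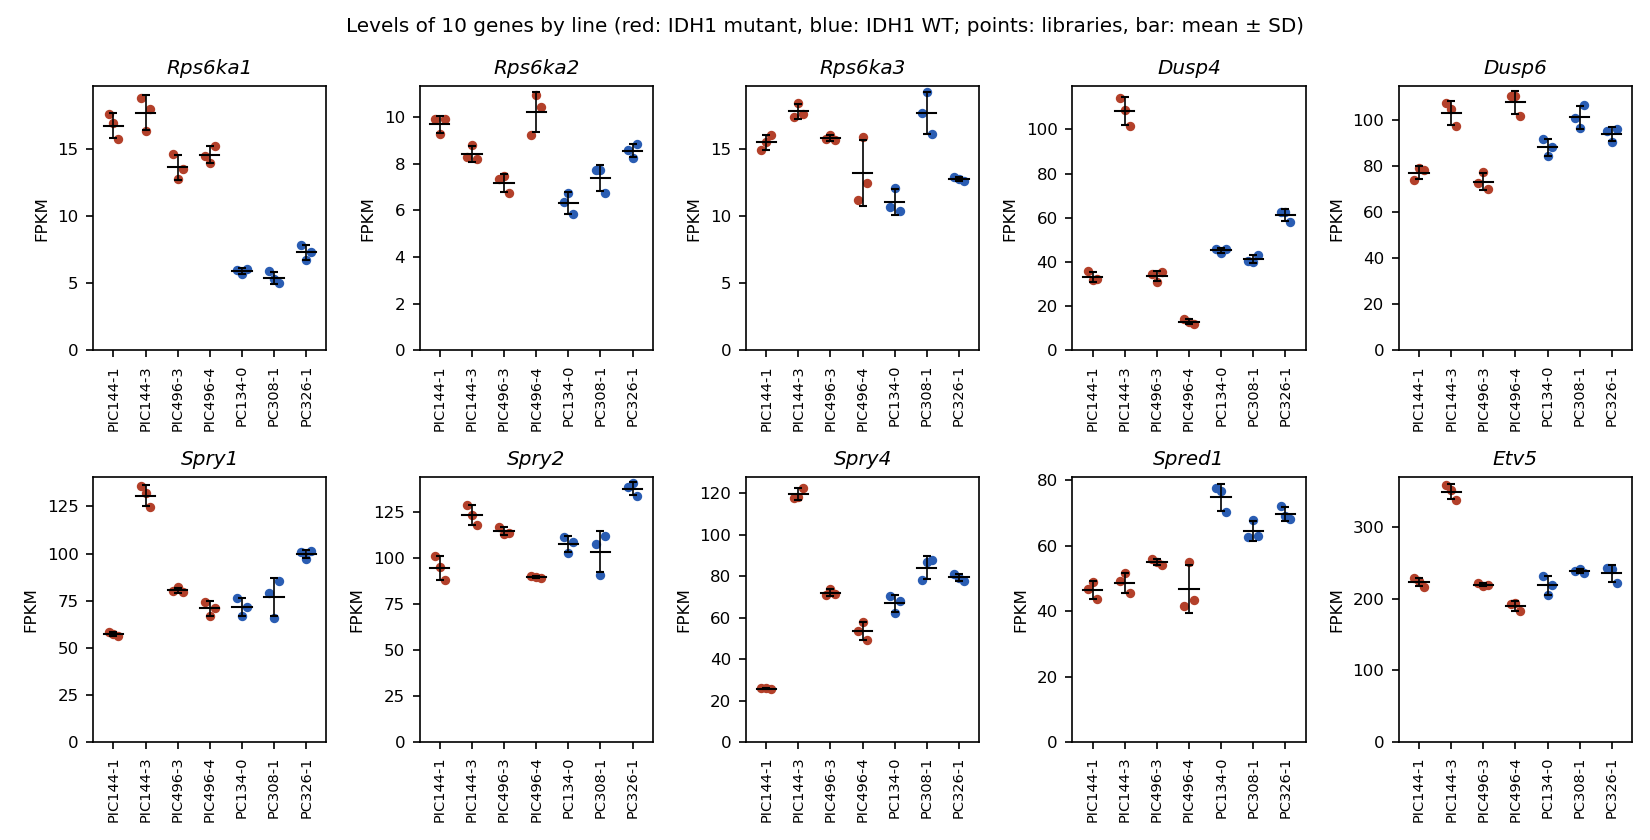
FPKM of the 10 genes in each line, with points for the 3 libraries and a bar for their mean ± SD; IDH1 mutant lines are red and IDH1 WT lines blue. Rps6ka1, by which the set was chosen, and Spred1 separate the genotypes in every library, while Dusp4, Spry1, Spry4 and Etv5 are highest in PIC144-3. Line means of 13.2% of all genes did not overlap between genotypes, and the share separating in every library was not counted.

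Rps6ka1 encodes RSK1 and lies on chr4:133847290-133887797 (GRCm38, minus strand, ENSMUSG00000003644). In the 12 mutant libraries its FPKM ranged from 12.7 to 18.8 with a median of 15.4, and in the 9 WT libraries from 4.98 to 7.86 with a median of 5.99. No mutant library overlapped any WT library. The set was chosen by this gene, and libraries of a line are not replicates of genotype, so the separation only describes. Line means lay higher in all mutant lines for 6.81% of all genes. Line means were 17.7 ± 1.28 in PIC144-3, 16.7 ± 0.947 in PIC144-1, 14.5 ± 0.617 in PIC496-4 and 13.6 ± 0.935 in PIC496-3 (SD, n = 3 libraries), against 7.30 ± 0.570 in PC326-1, 5.91 ± 0.193 in PC134-0 and 5.401 ± 0.453 in PC308-1. The depth gave Poisson 95% intervals, which cover counting error only, of 6.94 to 7.67 in PC326-1 and 13.1 to 14.1 in PIC496-3. Within the order, PIC144-1 overlapped PIC144-3, PIC496-3 overlapped PIC496-4, and PC308-1 overlapped PC134-0 in their libraries. Over lines the means were 15.6 ± 1.89 (SD, n = 4) and 6.20 ± 0.982 (SD, n = 3), a difference on the log2(FPKM + 0.5) scale of 1.27 with a standard error of 0.157 and a 95% interval of 0.91 to 1.63. Between the lines sharing a number the differences were small: PIC144-3 minus PIC144-1 was 0.08 (95% interval -0.08 to 0.23) and PIC496-4 minus PIC496-3 was 0.09 (-0.06 to 0.25), neither past the limma test. In bulk samples such as these, fewer cells of a type and less RNA per cell cannot be told apart.

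The other RSK genes did not separate the genotypes. Rps6ka2, which encodes RSK3 (chr17:7170115-7303315, plus strand), ranged from 6.73 to 10.9 FPKM in mutant libraries (median 9.01) and from 5.84 to 8.83 in WT libraries (median 7.71). Its genotype difference was 0.24 on the log2 scale (SE 0.170), and the highest lines were PIC496-4 at 10.2 ± 0.863 and PIC144-1 at 9.67 ± 0.373, both mutant. Rps6ka3, which encodes RSK2 and is X-linked (chrX:159210307-159368244, plus strand), ranged from 11.2 to 18.4 in mutant libraries (median 15.8) and from 10.4 to 19.3 in WT libraries (median 12.8). The WT line PC308-1 (17.7 ± 1.55) and the mutant line PIC144-3 (17.8 ± 0.553) shared the top of the order, and the difference was 0.18 (SE 0.188). Xist, the RNA that coats the inactive X, reached 8.11 FPKM in PIC496-3 and 15.6 in PIC496-4 and at most 0.0139 in the other lines, and Rps6ka3 in those lines (15.8 and 13.2) lay inside the range of the rest.

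**Figure D2:**
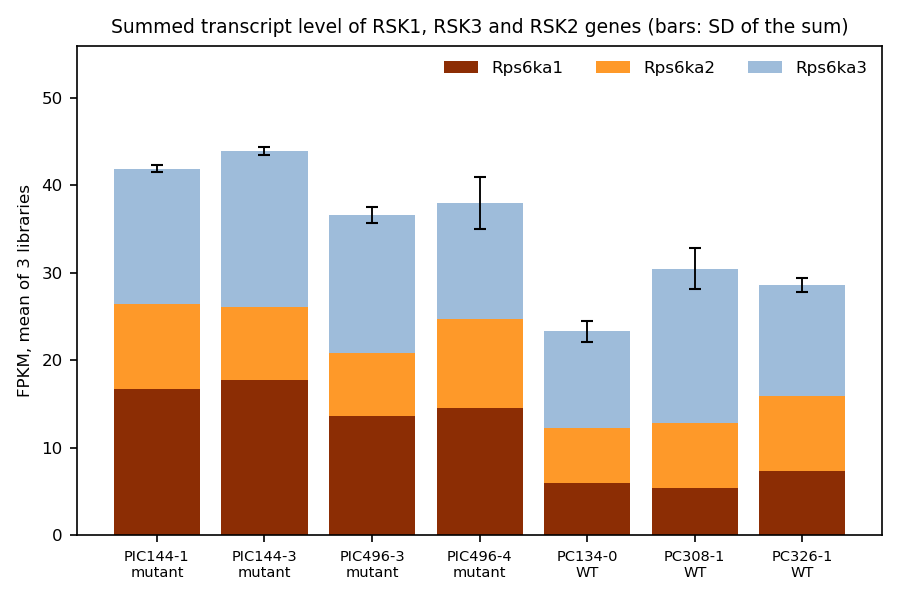
Summed FPKM of Rps6ka1, Rps6ka2 and Rps6ka3 in each line (stacked means of 3 libraries; bars are the SD of the sum). Mutant sums run from 36.6 to 43.9 and WT sums from 23.3 to 30.5.

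Adding the 3 genes gave a RSK transcript level of 40.1 ± 3.40 FPKM (SD, n = 4) in mutant lines and 27.5 ± 3.73 (SD, n = 3) in WT lines, and the line ranges, 36.6 to 43.9 and 23.3 to 30.5, did not overlap. Rps6ka1 made up 38.9% ± 1.42 of that sum in mutant lines and 22.9% ± 4.46 in WT lines. In mutant lines its share equalled that of Rps6ka3 (38.9% ± 3.81), whereas in WT lines Rps6ka3 held 50.03% ± 7.06. The share of Rps6ka2 was 22.2% ± 3.58 and 27.1% ± 2.83. The sum contains the gene that led to the choice of the set, so it too is a description.

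The genes around Rps6ka1 did not share its difference. Of the 10 tested genes on each side, with starts from 133266045 to 134510999 on chromosome 4, 11 had a positive and 9 a negative genotype difference, from -0.41 to 0.40 with a median of 0.02. Nearest were Arid1a, a chromatin remodelling subunit, at -0.09 (21.3 against 22.6 FPKM) and Hmgn2, a nucleosome-binding protein, at 0.02. Gpn2 and Cep85 were the 2 neighbours with all mutant lines above all WT lines (no line overlap in that direction was seen for 6.81% of all 13379 genes), and none of the 20 passed limma at an unadjusted p under 0.05. The 842 tested genes of chromosome 4 had a median of 0.06. Among the 3 annotated entries that overlap the Rps6ka1 locus the most abundant, the pseudogene Gm12985, reached 0.215 FPKM.

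Across the 7 line means, the genes most like Rps6ka1 were Sf3b4 (r = 0.986), Stk38 (0.980), Rpl31-ps9 (0.976), Bnip2 (0.973), Pif1 (0.970) and Setdb1 (0.970), out of 11638 genes compared, 74 of which had r over 0.9. Each of these 6 varied over a smaller log2 range, from 0.39 for Setdb1 to 0.78 for Pif1. The points are 7 lines sharing genotype and culture, so these values only describe.

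**Figure D3:**
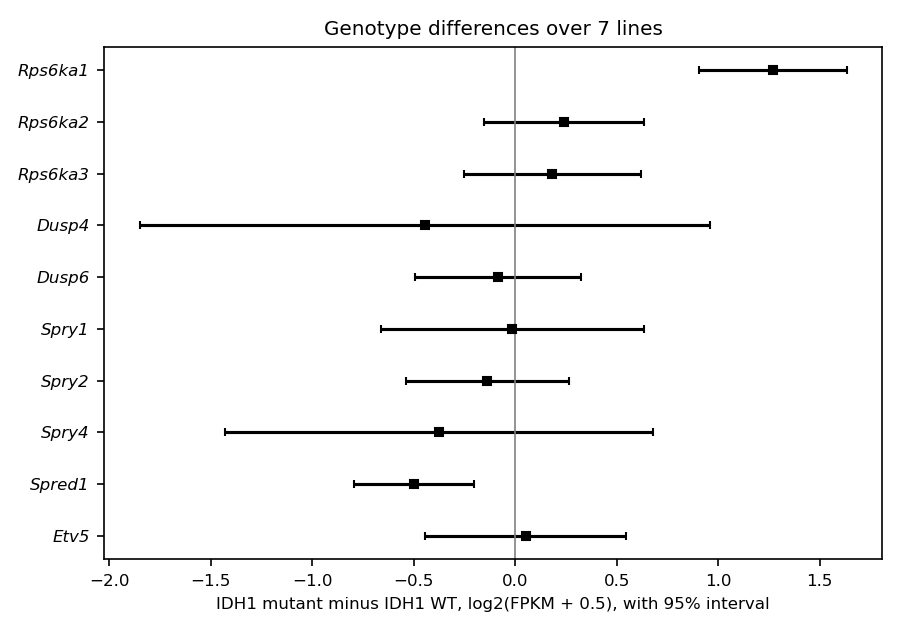
IDH1 mutant minus IDH1 WT difference of line means on the log2(FPKM + 0.5) scale for the 10 genes, with 95% intervals of the limma fit (n = 4 and n = 3 lines). Rps6ka1 lies at 1.27 and Spred1 at -0.50, and the other 8 genes lie between -0.44 and 0.24.

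Among the 7 feedback genes, 6 had a negative and 1 a positive genotype difference, with a median of -0.14. Over all 10 genes the median was -0.05, beside 0.01 over all genes tested. All 10 passed the filter on low values, and line means of 8 of the 10 overlapped between genotypes, whereas 1 was higher and 1 lower in all mutant lines, in a table where line means of 13.2% of genes did not overlap (6.81% higher and 6.37% lower in mutant lines). Since the contrast chose the set, nothing is read from these counts.

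Spred1, a membrane-bound inhibitor of RAS activation (chr2:117121374-117182279, plus strand), was the gene lower in all mutant lines. Its FPKM ran from 41.5 to 56.1 in mutant libraries (median 49.2) and from 62.6 to 77.6 in WT libraries (median 69.1), with no overlap. For 6.37% of all genes, the means of all mutant lines lay below those of all WT lines. Line means were 46.5 ± 2.71 in PIC144-1, 46.7 ± 7.34 in PIC496-4, 48.8 ± 3.08 in PIC144-3 and 55.2 ± 0.918 in PIC496-3, against 64.5 ± 3.02 in PC308-1, 69.8 ± 2.15 in PC326-1 and 74.9 ± 4.06 in PC134-0. The 3 lowest lines overlapped each other in their libraries. The genotype means were 49.3 ± 4.06 (SD, n = 4) and 69.7 ± 5.19 (SD, n = 3), a log2 difference of -0.50 (SE 0.127, 95% interval -0.79 to -0.20). Over the 7 lines Spred1 and Rps6ka1 ran opposite (r = -0.92, rho = -0.75), and both genes separate the genotypes.

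The remaining 6 feedback genes overlapped between genotypes, and for 5 of them the SD was larger over mutant lines than over WT lines. The share of all genes with a larger SD over mutant lines was not counted, so nothing is read from that count. Over all genes tested, the median log2 range between highest and lowest line was 0.65 among mutant lines and 0.41 among WT lines. Dusp4 was at 47.0 ± 41.9 FPKM over mutant lines and 49.3 ± 10.5 over WT lines, a log2 difference of -0.44 with an interval from -1.85 to 0.96. That difference was -0.97 without PIC144-3 and 0.03 without PIC496-4. Spry4 was at 67.8 ± 39.5 and 76.9 ± 8.88 (difference -0.38, SE 0.454; 0.02 without PIC144-1), Spry1 at 84.8 ± 32.0 and 82.7 ± 15.005 (-0.01, SE 0.280), and Etv5 at 245 ± 70.8 and 231 ± 10.5 (0.05, SE 0.213; -0.01 after rescaling to TPM). Spry2 was at 105 ± 16.0 and 116 ± 18.6 (-0.14, SE 0.174), and Dusp6, the cytoplasmic phosphatase of ERK, at 90.3 ± 17.6 and 94.4 ± 6.56 (-0.08, SE 0.177).

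Differences between lines of 1 genotype were not used to choose the genes and were tested with limma over the libraries, where a call needs an adjusted p under 0.05 and a log2 difference of at least 1. These p-values measure the spread between libraries of a line, which may be technical. Among the 4 mutant lines, 3 of the 10 genes were called (25.5% of all genes): Dusp4, Spry4 and Spry1. All 10 passed at any size, as did 80.7% of all genes, and 8 without replicate 1 or replicate 3, when Spred1 and Rps6ka3 did not pass. The median range between highest and lowest line was 0.51 on the log2 scale, beside 0.65 over all genes. Among the 3 WT lines, 0 of the 10 were called (12.9% of all genes) and 8 passed at any size (61.4% of all genes), with a median range of 0.41, beside 0.41 over all genes. Spred1 and Etv5 were the 2 that did not pass, and the widest WT range was 0.65, for Rps6ka3.

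Dusp4, a nuclear phosphatase of ERK (chr8:34807297-34819894, plus strand), had the widest range. Its FPKM in the 3 libraries of PIC144-3 was 114.2, 109 and 101.5, and in those of PIC496-4 it was 14.3, 12.8 and 12.1. The other mutant lines lay together, with 35.7, 31.9 and 32.2 in PIC144-1 and 34.4, 31.1 and 35.4 in PIC496-3. WT line means, 41.3 ± 1.80 in PC308-1, 45.4 ± 1.19 in PC134-0 and 61.2 ± 2.62 in PC326-1, fell between those mutant levels and PIC144-3, and only PIC144-1 and PIC496-3 overlapped among neighbours in the order. The range was 3.00 on the log2 scale, 8.01-fold (limma adjusted p = 3.72e-16).

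Spry4 and Spry1, Sprouty inhibitors of the cascade, were lowest in PIC144-1 and highest in PIC144-3. Spry4 (chr18:38586268-38601268, minus strand) had 26.0, 25.9 and 25.4 FPKM in the libraries of PIC144-1 and 117.9, 118 and 123 in those of PIC144-3, with PIC496-4 at 53.7 ± 4.36 and PIC496-3 at 72.1 ± 1.59. WT lines lay at 67.0 ± 4.15, 84.2 ± 5.44 and 79.4 ± 1.67 in PC134-0, PC308-1 and PC326-1, so the highest and the lowest level were both in mutant lines. Spry1 (chr3:37639947-37644598, plus strand) had 58.2, 57.2 and 56.4 in PIC144-1 and 136, 132 and 124.5 in PIC144-3, with 70.8 ± 3.80 in PIC496-4, 80.5 ± 1.30 in PIC496-3, and WT lines from 71.6 ± 4.91 to 99.8 ± 2.26.

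**Figure D4:**
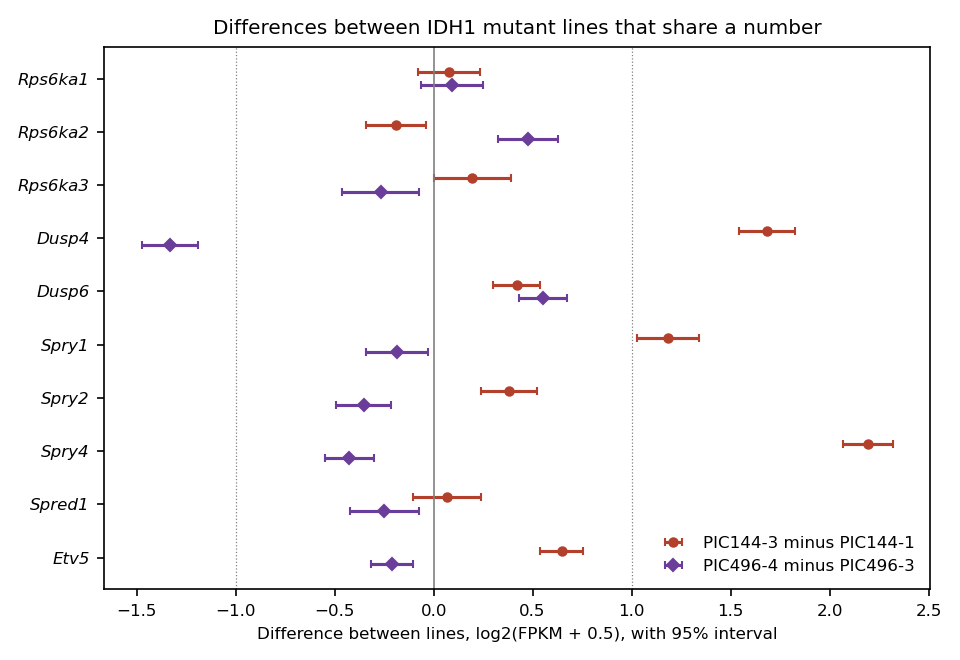
Differences between mutant lines that share a number on the log2(FPKM + 0.5) scale, with 95% intervals of the limma fit (3 libraries per line; dotted lines mark a difference of 1). Feedback genes lie right of 0 for PIC144-3 minus PIC144-1 and, apart from Dusp6, left of 0 for PIC496-4 minus PIC496-3; Rps6ka1 lies near 0 in both.

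Lines that share a number were compared next, beginning with PIC144-3 and PIC144-1. Spry4 was higher in PIC144-3 by 2.19 (SE 0.0599), Dusp4 by 1.68 (SE 0.0679) and Spry1 by 1.18 (SE 0.0743) on the log2 scale, 3 of the 10 genes beside 10.6% of all genes called, 6.82% higher and 3.77% lower (limma adjusted p from 1.78e-15 to 1.79e-10). Etv5 (0.65), Dusp6 (0.42) and Spry2 (0.38) were also higher at adjusted p under 0.05, so 6 of the 7 feedback genes were higher and none lower. Such differences of any size were found for 58.2% of all genes. The seventh, Spred1, differed by 0.07 (95% interval -0.11 to 0.24). Among the RSK genes, Rps6ka2 was lower by -0.19 (SE 0.0717), while Rps6ka3 differed by 0.19 with an interval from -0.000368 to 0.39. The median over the 10 genes was 0.40, beside 0.00 over all genes.

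Etv5 (chr16:22381309-22439719, minus strand) was the most abundant of the 10 genes in every line. Its libraries read 359, 351 and 337.5 FPKM in PIC144-3, 228.5, 224 and 216 in PIC144-1, 222, 218 and 218 in PIC496-3, and 193, 194 and 182 in PIC496-4. WT lines were narrow, at 219 ± 13.01, 238 ± 2.87 and 235 ± 11.4, and of the 7 lines PIC144-3 and PIC496-4 alone stood outside the overlapping middle.

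In the pair PIC496-4 and PIC496-3, 1 of the 10 genes was called, Dusp4, lower in PIC496-4 by 1.33 on the log2 scale (log2 difference -1.33, SE 0.0679, limma adjusted p = 7.61e-12), beside 9.95% of all genes called, 2.74% higher and 7.21% lower. At adjusted p under 0.05 and any size (51.5% of all genes), 6 of the 7 feedback genes were lower: Dusp4, Spry4 (-0.43), Spry2 (-0.35), Spred1 (-0.25), Etv5 (-0.21) and Spry1 (-0.18). That count fell to 3 without replicate 3 and to 4 without replicate 1, with Spry1 and Spred1 lost in both. The median over the 10 genes was -0.23, beside 0.01 over all genes. Dusp6 (chr10:99263231-99267489, plus strand) went the other way, at 110.6, 110.3 and 102 FPKM in PIC496-4 and 72.5, 77.3 and 69.9 in PIC496-3, a difference of 0.55 (SE 0.0572). Its levels in PIC496-4 overlapped those in PIC144-3, the line with the highest Dusp4, Spry1, Spry4 and Etv5. Rps6ka2 was higher in PIC496-4 by 0.48 (SE 0.0717) and Rps6ka3 lower (-0.27, SE 0.0927).

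Spry2, another Sprouty gene (chr14:105891947-105896819, minus strand), ranged less than Spry1 and Spry4. It was highest in the WT line PC326-1 at 137 ± 3.53 and in PIC144-3 at 123 ± 5.42, and lowest in PIC496-4 at 89.4 ± 0.470 and PIC144-1 at 94.5 ± 6.46. Its 4 lowest lines overlapped as neighbours in the order. Measured against each gene's mean over the 7 lines, the median deviation of the 7 feedback genes on the log2 scale was 0.57 in PIC144-3, 0.29 in PC326-1, 0.02 in PC308-1, -0.02 in PC134-0, -0.05 in PIC496-3, -0.29 in PIC144-1 and -0.29 in PIC496-4. Both the highest and the lowest medians were thus in mutant lines.

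As a description over 7 lines, Dusp4 ran with Etv5 (r = 0.88), Spry2 (0.78) and Spry1 (0.74), and Spry1 ran with Spry4 (0.86), Etv5 (0.81) and Spry2 (0.78). By rank correlation (rho) the order for Dusp4 was another: 0.86 with Spry2, 0.82 with Spry1, 0.79 with Spry4 (r = 0.58) and 0.68 with Etv5. PIC144-3 was the highest line for Dusp4, Spry1, Spry4 and Etv5 and the next to highest for Spry2, so these r values can rest largely on that line. By r, Dusp6 (from -0.02 to 0.49) and Spred1 (from -0.10 to 0.47) ran less closely with the other feedback genes. By rank, Spred1 reached rho = 0.61 with Dusp4 and 0.57 with Spry2. Genes most like Dusp6 were Bche (r = 0.980), Fam219b (0.956), Rpl18-ps1 (0.951), Dnajc3 (0.933), Rbm15 (0.926) and Cep57 (0.922), and 17 of 11638 genes had r over 0.9. Rps6ka1 had r from -0.28 to 0.22 with the feedback genes other than Spred1.

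The wider pathway was read from 7 lists with 98 further genes, 91 of which passed the filter. By limma 0 of the 91 were called between genotypes (lowest adjusted p = 0.280; 0.112% of all genes called, 0.0224% higher and 0.0897% lower). At an unadjusted p under 0.05, 10 of the 91 passed, 4 higher and 6 lower in mutant lines, which is 10.99% beside 12.8% of all genes. A fit over the 21 libraries with the line as a random effect called 5 of them (Erbb2, Pdgfra, Gab1, Dusp8 and Myc), beside 4.13% of all genes. That fit shares a correlation over all genes and takes its degrees of freedom from libraries, although genotype belongs to the line. Its p-values can be too small for genes that vary widely between lines, so nothing is read from these calls. The lists' medians ran from -0.61 for 6 tested receptor kinases to 0.11 for 19 activators, partners and substrates of RSK, and the cascade from RAS to ERK, with 18 tested genes, had a median of -0.01.

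Among the receptors, Erbb2 was at 3.13 ± 1.05 FPKM in mutant lines (n = 4) and 5.87 ± 0.854 in WT lines (n = 3), a log2 difference of -0.84 (SE 0.232, limma adjusted p = 0.280). Pdgfra, the receptor for PDGF-A, was at 104 ± 6.1 in PC308-1 and 0.436 ± 0.17 in PIC496-4, and its difference of -2.57 (SE 1.00) had an adjusted p of 0.370. Gab1, an adaptor that links receptors to the cascade, differed by -0.81 (SE 0.314), and Cbl, which marks receptors for degradation, by -0.31 (SE 0.155). Of the 14 genes listed as other feedback genes, 7 had a positive and 7 a negative difference, with a median of 0.02. The smallest limma p-values in that list were those of Spry3, at 1.44 ± 0.582 and 3.61 ± 1.14 FPKM (-1.10, SE 0.305), and Dusp8, at 5.25 ± 1.44 and 8.25 ± 0.389 (-0.64, SE 0.207). Dusp1, next in the list, went the other way, at 14.1 ± 5.09 and 8.08 ± 1.37 (0.73, SE 0.257).

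Of the RSK relatives, Rps6ka6, which encodes RSK4, differed by -0.32 between genotypes and Rps6ka5, which encodes MSK1, by 0.05. Downstream, Rps6, the ribosomal protein that RSK phosphorylates, was at 581 ± 103 and 395 ± 105 FPKM (0.57, SE 0.224), and the S6 kinase gene Rps6kb1 at 7.99 ± 0.873 and 5.82 ± 1.04 (0.43, SE 0.160). Rps6 has many processed copies in the genome, so its reads may be split among them. Myc was higher in all mutant lines, from 50.2 ± 0.98 in PIC144-3 to 271 ± 17 in PIC496-4, against 25.4 ± 2.3 to 29.7 ± 2.1 in WT lines (1.83, SE 0.549, limma adjusted p = 0.295), and Egr2 differed by -0.99 (SE 0.433). Line means did not overlap for 6.81% of all genes in that direction and for 6.37% in the other. Of the pathway genes named here, Rps6kb1 and Dusp1 were also higher in all mutant lines, and Erbb2, Pdgfra, Spry3 and Dusp8 lower. These genes were named for small p-values in the same contrast, or with values already seen, so nothing is read from their separation. The share among all tested pathway genes was not counted.

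**Figure D5:**
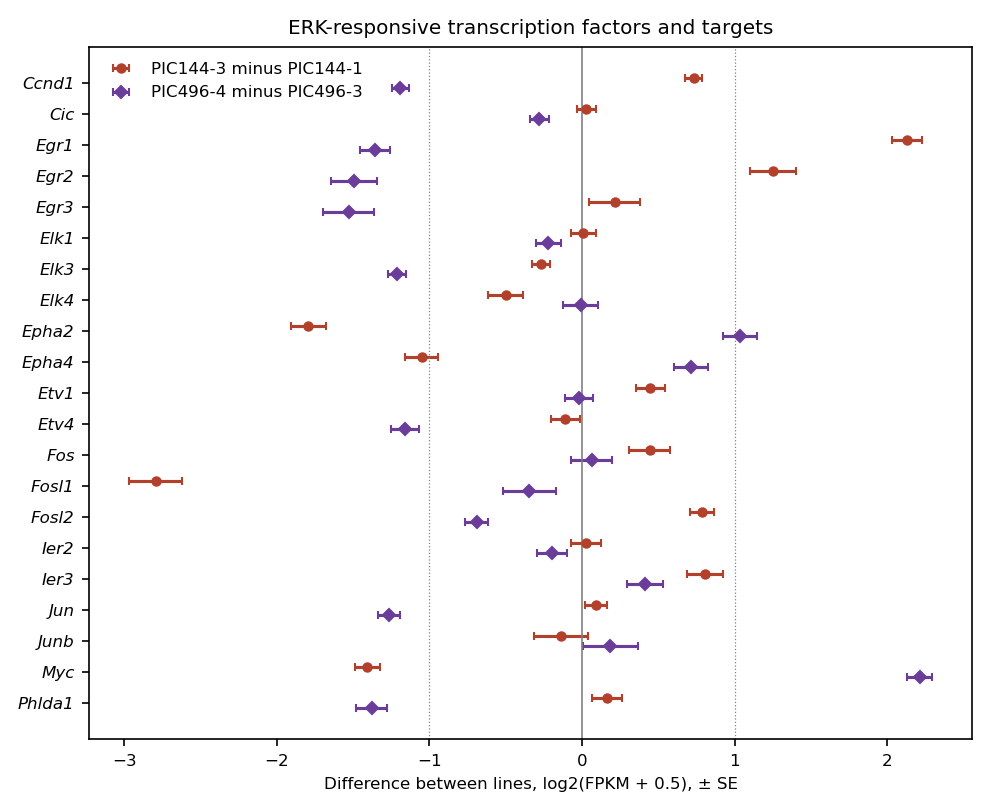
Differences between mutant lines that share a number for 21 ERK-responsive genes outside the set, on the log2(FPKM + 0.5) scale ± SE (3 libraries per line; dotted lines mark a difference of 1). Egr1 and Egr2 lie past 1 on the right for PIC144-3 minus PIC144-1 and past -1 on the left for PIC496-4 minus PIC496-3, and Myc lies on the opposite sides.

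Between the lines that share a number, the same lists held calls in both directions. In PIC144-3 against PIC144-1, 6 of the 91 genes were called higher and 6 lower, and in PIC496-4 against PIC496-3, 5 were higher and 14 lower (10.6% and 9.95% of all genes called). Of the 21 ERK-responsive genes, the immediate early factors Egr1 (3.42 ± 0.42 to 16.6 ± 0.66 FPKM, log2 difference 2.13) and Egr2 (1.25) rose in PIC144-3, while Fosl1, Myc, Epha2 and Epha4 fell. In PIC496-4, 8 of them fell (Egr1, Egr2, Egr3, Jun, Ccnd1, Phlda1, Etv4 and Elk3) and 2 rose (Myc and Epha2). Egr1 thus had the direction of Dusp4 in both pairs, and Myc the opposite one. Over all lines Egr1 did not follow Dusp4: it was highest in PIC496-3 (41.2 ± 1.1), and PIC144-3 lay below the WT lines (26.2 ± 1.7 to 38.2 ± 3.7). The receptor genes Egfr (2.53 ± 0.19 to 10.5 ± 0.0091 FPKM, log2 difference 1.86) and Fgfr3 (1.76), whose ligands were in the medium, rose in PIC144-3. PIC144-1 was the lowest line for both, and Egfr in PIC144-3 was near the WT lines PC134-0 (10.1 ± 0.15) and PC326-1 (10.5 ± 0.39). Fgfr3 fell in PIC496-4 by 2.38 on the log2 scale, from 12.2 ± 0.021 to 1.95 ± 0.28, and Egfr differed there by -0.81. Egfr (17.1 ± 0.37) and Fgfr3 were highest of all lines in PIC496-3, where the feedback genes had a median deviation of -0.05. Fgfr1, more abundant than both in every line, differed by 0.36 in the PIC144 pair and 0.04 in the PIC496 pair. Whether receptor levels played a part in the feedback genes was not tested.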

How the data were processed

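RNA of 21 libraries from 7 lines was captured by polyA selection and sequenced from strand-specific libraries, per the labels' protocols. The submitters' processing notes name HISAT2 and mm39; the sources used here do not name the counter, the annotation release or the strand setting. The authors deposited FPKM per gene; the table's gene coordinates are those of GRCm38 (53548 of 54532 genes have the same coordinates in GENCODE on that build, and so do 9 of the 10 genes described, all but Spry4). FPKM times gene length gave whole fragments (100% of values under 1000 fragments, within 0.05).

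The members and lists were chosen with earlier results of these data known. A line's value is the mean of log2(FPKM + 0.5) over its 3 libraries. The planned wording also allowed the log2 of a line's mean FPKM; the choice was made after both had been run. Genes with at least 0.5 FPKM in 3 or more lines (13379) were tested with limma 3.58.1 in R 4.3.3 (eBayes with trend and robust), Benjamini-Hochberg adjusted over all of them. Genotype was fitted on 7 line values, line differences on 21 libraries. On simulated data with 200 changed genes, genotype calls were made for 80.8% of genes with a log2 change of 2 and for 35.2% with a change of 1. A mean of 6.6 unchanged genes was also called over 5 runs. The simulated lines and genes were drawn independently, which lines that share a number may not be.

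Named were the 10 genes, the 2 lowest p of each pathway list without a call, the 6 genes most like Rps6ka1 and Dusp6 (no predicted or clone symbols), the nearest neighbours and the most abundant marker of each list; 2 of these genes are not reported here. Genes named between lines sharing a number, Dusp1, Gpn2, Cep85, Gm12985 and Xist were picked with their values already seen. Alternative settings used pseudocounts of 0.1 and 1, other filters, TPM and median-of-ratios scaling, random-effect fits, averaging lines sharing a number, and leaving out each line or replicate. Without both PIC496 lines, the log2 of mean FPKM, and fixed genes when a line was left out were added after seeing the data. A comparison of protein sequences was planned and not run.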

Additional observations from a re-analysis of the deposited data

How the results depend on the processing

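Among the 10 genes, the calls between lines were the same under all 10 alternatives run for each comparison: 3 within mutant lines, 0 within WT lines, 3 in the PIC144 pair and 1 in the PIC496 pair. Differences at adjusted p under 0.05 of any size were less stable, at 8 to 10 of the 10 genes within mutant lines, 7 to 10 within WT lines, 6 to 8 in the PIC144 pair and 5 to 9 in the PIC496 pair. In the PIC496 pair, Spry1 was lost in 4 settings (adjusted p up to 0.142), Rps6ka3 in 4 (up to 0.317), Spred1 in 3 (up to 0.304) and Etv5 in 1 (0.0625). Within mutant lines Spred1 was lost in 4 settings (up to 0.329) and Rps6ka3 in 2 (up to 0.128), within WT lines Dusp6 in 3 (up to 0.192), and in the PIC144 pair Rps6ka2 in 3 (up to 0.207). All are limma values. The 6 feedback genes higher in PIC144-3 passed in all 10 settings. Over 28 settings the genotype difference kept its sign for Rps6ka1 (1.18 to 1.41), Spred1 (-0.56 to -0.45), Rps6ka2 (0.14 to 0.34), Rps6ka3 (0.04 to 0.37) and Spry2 (-0.22 to -0.01). It changed sign for Dusp4 (-0.97 to 0.30), Dusp6 (-0.17 to 0.01), Spry1 (-0.24 to 0.15), Spry4 (-0.71 to 0.02) and Etv5 (-0.13 to 0.28). Rps6ka1 was chosen because it was higher in every mutant line, so its constant sign carries no weight.

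Genes called between genotypes numbered 15, and 16 with the log2 of mean FPKM. The count was 3 with no filter, 8 with the stricter filter, 6 with lines sharing a number averaged, 5 without both PIC496 lines and 552 with the line as a random effect. Leaving out 1 line gave 0 (PC134-0) to 48 (PC308-1, genes tested kept; 29 otherwise), with 4 without PIC144-1, 5 without PIC496-4 and 1 without PC326-1 (3 for PC326-1 and PC134-0 with the genes tested kept). The cause was not tested. The count of pathway genes called, 0, was 5 in the random-effect fit, which takes its degrees of freedom from libraries.

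Replicate numbers did not meet the bar for pairing, r over 0.1 in every pair: deviations of same-numbered libraries of different lines had r from -0.12 to 0.29, over 0.1 in 14 of 63 pairs (22.2%), against 10 of 126 pairs with different numbers (7.94%, highest 0.21), and 9 of 21 libraries correlated best with their own number. With the replicate block added to the random-effect fit, 440.0 genes and 4 pathway genes were called, and in the line comparisons the block changed no call among the 10 genes with a log2 difference of at least 1, while at any size 10 in place of 8 passed within WT lines and 8 in place of 7 in the PIC144 pair. Depth gave at least 1210 fragments for Rps6ka1 in a line.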

Other observations

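Some pathway genes outside the set stood out in single lines, and they are given as values only. Fosl1, an AP-1 subunit, was at 11.4 ± 0.40 FPKM in PIC144-1 and 1.26 ± 0.47 to 1.83 ± 0.37 in the other 6 lines (SD, n = 3 libraries). Epha2, a receptor for ephrins, was also highest in PIC144-1 (10.3 ± 0.33) and lay between 0.436 ± 0.059 and 2.63 ± 0.17 elsewhere. Dusp9, another ERK phosphatase, was at 3.34 ± 0.45 in PIC496-4 and at most 0.707 ± 0.19 in the other lines. Il17rd, a membrane inhibitor of FGF signalling, was lowest in PIC496-4 at 0.216 ± 0.04 and highest in PC308-1 at 9.33 ± 0.49.

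Rps6ka6 moved in opposite directions in the pairs that share a number, from 9.25 ± 0.91 in PIC144-1 to 4.31 ± 0.57 in PIC144-3 and from 3.80 ± 0.22 in PIC496-3 to 9.80 ± 2.6 in PIC496-4 (log2 differences -1.02 and 1.23, limma adjusted p = 3.12e-06 and 3.40e-07). Pea15a, which holds ERK in the cytoplasm and binds RSK2, went from 20.1 ± 0.76 to 44.8 ± 1.2 FPKM and from 85.7 ± 7.4 to 22.1 ± 2.8 (1.14 and -1.94). Lrig1, an inhibitor of receptor kinases, was at 113 ± 2.9 in PIC144-1, 117 ± 6.7 in PC134-0 and 102 ± 2.4 in PC326-1, and at 29.3 ± 1.1 to 42.1 ± 0.80 in the other 4 lines, so that its split did not follow genotype.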
